A study of Mus musculus with 3 samples.

Results

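The Hist1h genes are the replication-dependent histone genes of mouse chromosome 13. They were taken as every protein-coding gene of that chromosome in the GENCODE M21 annotation (mm10) whose name starts with Hist1h, which gave 54 of 21938 coding genes. By class, 6 code for the linker histone H1, 13 for H2A, 15 for H2B, 9 for H3 and 11 for H4. Each gene was given the ATAC-seq peaks that overlapped its body or the 2 kb on either side. These windows held 39 of 129843 peaks for SOX2-ON, 35 of 131520 for SOX2-OFF and 45 of 130348 for CEpiLC.

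ATAC-seq uses a transposase to cut and tag exposed DNA, so that a peak marks accessible chromatin. All 3 samples, 1 in each group, were mouse ES cells of the HM1 line (strain 129) differentiated for 72 h with 5 µM of the WNT secretion inhibitor LGK974 and 10 ng/ml of bFGF, and with the GSK3 inhibitor CHIR99021 added for the last day to drive caudal epiblast-like cell (CEpiLC) identity. SOX2-ON and SOX2-OFF are the SOX2 TetON line, a picked clone that is Sox2-/- at the endogenous gene and carries a doxycycline-inducible Sox2 transgene at the Hprt locus. It was made in the HM1 TetON line, which makes the rtTA activator from Rosa26 and served the authors as wild-type control. SOX2-ON was kept in 1 µg/ml doxycycline throughout, whereas the drug was withdrawn for differentiation in SOX2-OFF. The CEpiLC sample is wild-type for Sox2, carries no Sox2 transgene and received no doxycycline. CEpiLC therefore differs from the other samples in line as well as in Sox2, and the effects of the clone and of SOX2 cannot be told apart there. A peak within 1 kb of the start was present in every list at Pou5f1, T, Cdx2 and Sox2, and none was called at Hprt in any list.

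Replication-dependent histone genes are transcribed in S phase, when new DNA must be packed. They are short, mostly without introns, and their mRNAs end in a stem-loop bound by SLBP instead of a poly(A) tail. H2A and H2B form a dimer and H3 and H4 a tetramer in the nucleosome core, while H1 binds the linker DNA. H2A and H2B genes often lie head to head and share the DNA between their starts as a promoter. The genes gather in the nucleus in the histone locus body, where the coactivator NPAT sits.

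The genes lie in 3 runs on the chromosome. The first run holds 23 genes over 328 kb (chr13:21715763-22043676) and the second 29 genes over 233 kb (chr13:23531050-23764406). The last is the lone pair Hist1h2ba and Hist1h2aa (chr13:23933773-23934851), which encode the H2B and H2A of the male germ line. Of the 54 genes, 24 stand in 12 head-to-head pairs whose starts are at most 1 kb apart. Of these pairs, 11 join an H2A to an H2B gene and the other joins Hist1h2bh to Hist1h3f. Starts within a pair are 176 to 660 bp apart, so 1 peak usually serves both genes.

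Promoter sequences from RefSeq (GRCm38.p6, the build of mm10) were matched to 51 of the 54 genes. Each runs from 250 bases before the RefSeq start to 50 after it. A few are shown, for genes named in the results below, 5′ to 3′ on the strand of the gene. Capitals mark the octamer ATTTGCAT, the TATA box TATAAA and the CCAAT box CCAAT, each in either orientation. Hist1h2bp shares its promoter with Hist1h2an, the pair with the strongest peak in SOX2-ON. Hist1h2ac belongs to the pair with the strongest peak in SOX2-OFF. Hist1h2ag belongs to a locus that lay in separate peaks in SOX2-ON and in a joined one in SOX2-OFF. Hist1h2aa is the germ-line pair, Hist1h4b had the worst mean rank of the H4 class, and Hist1h1t, the linker histone of spermatocytes, had no peak over its RefSeq start in any list.
Hist1h2bp, chr13:21787238-21787537, plus strand: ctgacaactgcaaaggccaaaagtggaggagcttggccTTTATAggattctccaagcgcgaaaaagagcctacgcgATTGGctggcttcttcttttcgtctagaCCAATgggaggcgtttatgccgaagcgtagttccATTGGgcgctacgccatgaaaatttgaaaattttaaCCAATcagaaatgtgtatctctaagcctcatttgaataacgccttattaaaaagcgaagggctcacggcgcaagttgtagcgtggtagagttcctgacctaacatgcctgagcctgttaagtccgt
Hist1h2ac, chr13:23683910-23684209, minus strand: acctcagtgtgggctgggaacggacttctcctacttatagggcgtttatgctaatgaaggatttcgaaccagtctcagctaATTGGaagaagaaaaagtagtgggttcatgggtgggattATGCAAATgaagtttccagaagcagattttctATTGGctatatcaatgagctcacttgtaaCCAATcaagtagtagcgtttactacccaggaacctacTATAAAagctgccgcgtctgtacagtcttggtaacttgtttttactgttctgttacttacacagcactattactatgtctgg
Hist1h2ag, chr13:22042900-22043199, minus strand: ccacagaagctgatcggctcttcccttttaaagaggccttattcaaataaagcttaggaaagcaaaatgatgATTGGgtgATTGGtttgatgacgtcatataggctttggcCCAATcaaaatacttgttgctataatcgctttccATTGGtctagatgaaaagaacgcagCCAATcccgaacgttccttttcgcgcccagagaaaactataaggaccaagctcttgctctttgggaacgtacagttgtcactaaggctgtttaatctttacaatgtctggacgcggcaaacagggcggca
Hist1h2aa, chr13:23934187-23934486, plus strand: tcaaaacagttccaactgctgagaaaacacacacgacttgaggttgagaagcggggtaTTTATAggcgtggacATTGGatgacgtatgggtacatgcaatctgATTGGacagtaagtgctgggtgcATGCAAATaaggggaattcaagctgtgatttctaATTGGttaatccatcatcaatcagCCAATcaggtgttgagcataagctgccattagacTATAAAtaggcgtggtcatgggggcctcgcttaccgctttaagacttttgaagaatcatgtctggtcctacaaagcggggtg
Hist1h4b, chr13:23756687-23756986, plus strand: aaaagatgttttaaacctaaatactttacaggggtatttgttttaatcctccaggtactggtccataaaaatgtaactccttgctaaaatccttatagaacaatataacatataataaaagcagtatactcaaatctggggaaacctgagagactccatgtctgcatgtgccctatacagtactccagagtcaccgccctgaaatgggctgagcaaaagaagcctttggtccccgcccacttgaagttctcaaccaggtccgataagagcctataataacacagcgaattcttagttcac
Hist1h1t, chr13:23695561-23695860, plus strand: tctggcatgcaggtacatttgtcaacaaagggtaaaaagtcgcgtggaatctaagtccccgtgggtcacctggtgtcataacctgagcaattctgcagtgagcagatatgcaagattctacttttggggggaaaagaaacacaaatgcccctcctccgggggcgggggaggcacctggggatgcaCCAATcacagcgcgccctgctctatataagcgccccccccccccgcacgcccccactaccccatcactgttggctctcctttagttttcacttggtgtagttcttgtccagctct

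The CCAAT box was found in every matched promoter of the H1 (6 of 6), H2A (13 of 13), H2B (14 of 14) and H3 (7 of 7) classes, and in 3 of 11 H4 promoters. Over all 17492 coding promoters of the same length in the table it was found in 39%. The H4 class alone was thus below that share, at 27.3%. The TATA box was found in 31 of 51 (60.8%, against 13.3% of all), with 4 of 6 in H1, 8 of 13 in H2A, 7 of 14 in H2B, 4 of 7 in H3 and 8 of 11 in H4. The octamer, the site of POU factors that is known from H2B promoters, was found in 10 of 51 (19.6%, against 1.71% of all). All 10 were H2A (5) or H2B (5) genes. Because paired genes share most of their window, a single octamer, TATA box or CCAAT box can count for both. Each motif was counted at any position and in either orientation, so a match need not be a box of that gene. As seen in the printed sequences, Hist1h2bp has CCAAT boxes on both strands and no octamer, Hist1h2aa and Hist1h2ac have all 3 motifs, and Hist1h4b has none.

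The 3′ stem-loop was searched on the sense strand within 200 bp of the annotated transcript ends, as 6 bases starting GG, 4 loop bases and the reverse complement of the 6. It was found at 40 of 54 genes. Stem-loops further from an annotated end were not searched for, so a gene without a match may still have one. Some genes without a match have long models, such as Hist1h2be (37455 bp). The commonest forms are shown with the arms in capitals.
Stem-loop of 25 genes: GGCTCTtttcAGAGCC
Stem-loop of 6 genes: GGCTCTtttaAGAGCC
Stem-loop of 5 genes: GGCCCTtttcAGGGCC
Of the others, Hist1h3g, Hist1h4a and Hist1h4b differed in the loop or arms, and the match at Hist1h3d (GGTCTCccatGAGACC) had an unlike loop. A peak covered the whole stem-loop at 27 of the 40 genes for SOX2-ON, 32 for SOX2-OFF and 29 for CEpiLC. Accessible chromatin thus reached to the 3′ end of most of these genes.

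All 54 genes had a peak in their window in every list (100%, Wilson 95% interval 93.4 to 100, which covers counting error only). Over all coding genes the share was 82.7% for SOX2-ON, 83.3% for SOX2-OFF and 83.2% in CEpiLC. Among the 2386 coding genes of at most 3 kb, which are nearer in size, it was 55.1%, 56.5% and 57.1%. The 49 other coding genes that lie between the first and last Hist1h gene, mainly vomeronasal receptors of the Vmn1r family, had a peak in 16, 18 and 22 cases (32.7%, 36.7% and 44.9%). The histone runs were thus peak-rich stretches within an interval where most other genes had no called peak. Per Mb, chromosome 13 held 0.913, 0.952 and 0.914 times the median number of peaks of 16 autosomes, so it had no excess of peaks.

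A peak within 1 kb of an annotated start was present for 48 genes for SOX2-ON, 49 for SOX2-OFF and 49 for CEpiLC (88.9%, 90.7% and 90.7%). The shares over all coding genes were 74.9%, 75.8% and 76.3%. The 5 genes without a start peak in any list were Hist1h2bq, Hist1h2ao, Hist1h2ap and Hist1h2br, an H2A and H2B gene of each copy of a repeated block described below, and the linker gene Hist1h1d. The GENCODE model of Hist1h1d starts upstream of its RefSeq start, and the RefSeq start lay inside a peak in all lists. Hist1h1t had no start peak in SOX2-ON but weak ones in SOX2-OFF (rank 55865) and CEpiLC (rank 33442). The strongest peak in its window belonged to the neighbouring Hist1h4c and ranked 6097, 4785 and 7880.

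Peaks spanned the whole body of many of the genes, but not of all. The strongest peak of a gene had a median width of 1536 bp for SOX2-ON, 2124 bp for SOX2-OFF and 2002 bp for CEpiLC, against 1290, 1391 and 1311 bp over all coding genes with a peak. The gene body was fully covered by peaks for 27, 34 and 30 of the 54 genes (50%, 63.0% and 55.6%), as against 5.03%, 7.17% and 5.95% of coding genes of at most 3 kb. The latter shares include genes without a peak, and gene lengths were not matched further. No peak covered any of the body of Hist1h2bq, Hist1h2ao, Hist1h2ap and Hist1h2br in any list. Coverage was highest for H4, with 8, 10 and 10 of 11 genes fully covered, and lowest for H1, with 1, 2 and 2 of 6. Gene length differs between these classes, from 312 to 1138 bp for H4 and from 741 to 7425 bp for H1. The strongest peaks of H4 genes were the narrowest of any class, with medians of 1100, 1597 and 1448 bp, against 1714, 1927 and 2092 bp for H1. The part of gene length in the coverage was not tested. Neighbours shared peaks, and 26, 24 and 29 peaks lay over the windows of more than 1 gene, with a maximum of 4 genes. The 54 genes therefore stood on only 29 distinct strongest peaks in each list, and formed 23 loci joined by shared peaks. Counts of genes are to be read with this sharing, and the number of loci that hold the genes is given beside the main ones.

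To compare samples, each peak was ranked within its own list by the −log10 p of the peak caller, so that rank 1 is the strongest. Raw values could not be compared, as they grow with depth, which the lists do not give. The median −log10 p of the 54 strongest peaks was 200 for SOX2-ON, 83.8 for SOX2-OFF and 27.1 in CEpiLC, and their median fold enrichment was 3.67, 2.67 and 2.55. The median rank was 4278 for SOX2-ON (quartiles 2988 to 8538), 7481 for SOX2-OFF (4594 to 9786) and 7788 for CEpiLC (5566 to 10718). Over all coding genes with a peak it was 8460, 8388 and 8740. On this measure the Hist1h median was thus nearer the top than that of all coding genes in each list. The order depended on how peaks were taken. By fold enrichment the Hist1h median was further from the top than that of all coding genes, at 11148 against 9031 for SOX2-ON, 14593 against 9097 for SOX2-OFF and 12607 against 9432 for CEpiLC. With peaks over the gene body alone the medians by −log10 p were 7568, 8364 and 8180, against 8590, 8491 and 8894 over all coding genes, so that SOX2-ON then stood only slightly ahead. With start peaks alone they were 6131, 8389 and 8124, against 8113, 8139 and 8569, and SOX2-OFF fell behind all coding genes. Over peaks of −log10 q of at least 5, CEpiLC fell behind them (7695 against 7276). With each distinct peak counted 1 time the members' medians were 6769, 8339 and 8124. With 1 sample per group there is no replicate check and no test, and in a bulk library the share of cells with an open site and the openness per cell cannot be told apart.

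**Figure D1:**
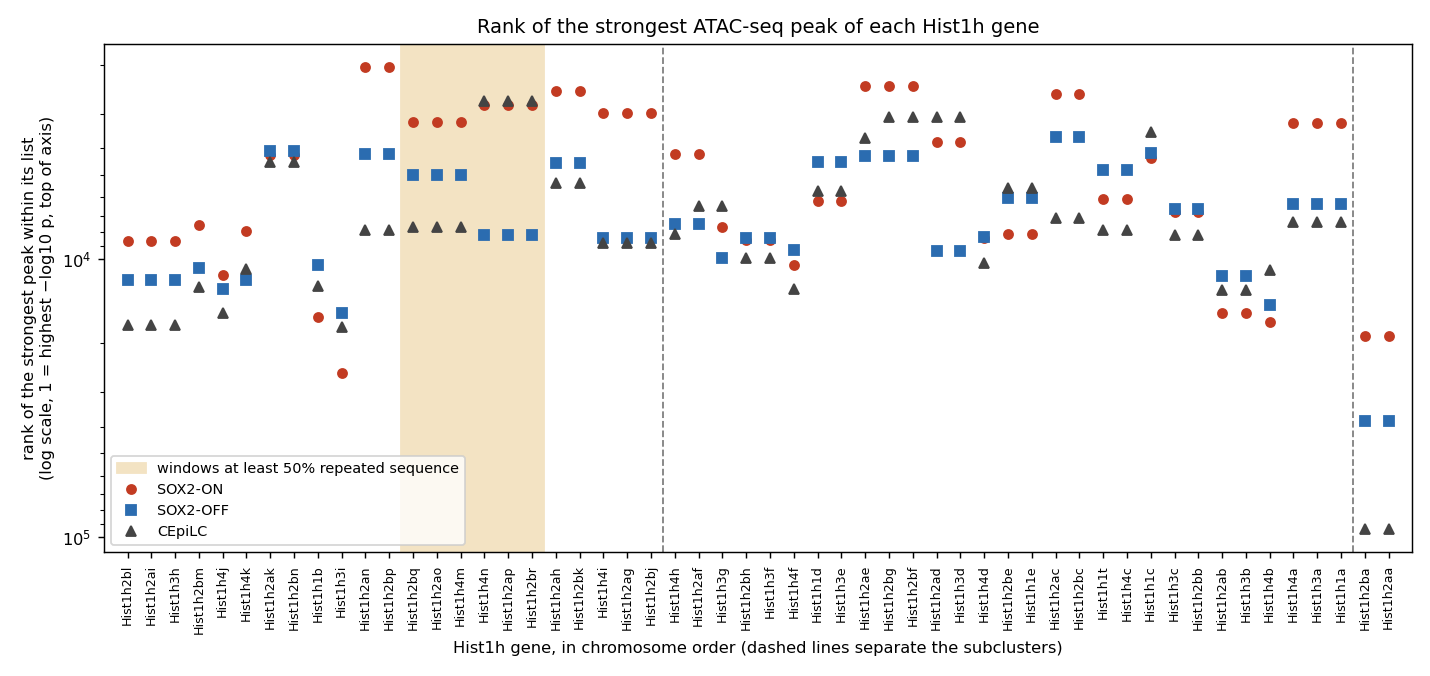
Rank of the strongest peak of each of the 54 Hist1h genes (x axis, chromosome order) within its own list (y axis, log scale, rank 1 towards the top), with 1 marker per gene for SOX2-ON (circles), SOX2-OFF (squares) and CEpiLC (triangles). Ranks run from 2042 to 93698, neighbours that share a peak have the same rank, and the germ-line pair at the right is lowest in SOX2-OFF and CEpiLC; the shaded band marks the 6 genes in repeated sequence.

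The strongest member in each list was a different locus. In SOX2-ON it was the H2A–H2B pair Hist1h2an and Hist1h2bp, whose shared peak ranked 2042 and fell to 4186 in SOX2-OFF and 7884 in CEpiLC. Next in SOX2-ON stood Hist1h2ae, Hist1h2bg and Hist1h2bf on a peak of rank 2386. That peak covers the starts of Hist1h2ae and Hist1h2bg, while the start peak of Hist1h2bf ranked 3792. In SOX2-OFF the best was the pair Hist1h2ac and Hist1h2bc, at 3646, which ranked 2542 in SOX2-ON and 7099 in CEpiLC. In CEpiLC it was the peak of Hist1h4n, Hist1h2ap and Hist1h2br, at 2705, with 2804 in SOX2-ON and 8182 in SOX2-OFF. This peak lies in the repeated block described below, whose values are uncertain, and covers neither Hist1h2ap nor Hist1h2br. Outside the block the best rank in CEpiLC was 3099, for the peak over the starts of Hist1h2bf and Hist1h2ad. The order of the members was therefore not the same in the 3 lists.

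A rank ratio of at least 2 between lists was taken as a call. Between SOX2-ON and SOX2-OFF, 12 of the 54 genes (22.2%) stood nearer the top in SOX2-ON, where 4.10% of 17732 coding genes did, and 0 stood nearer the top in SOX2-OFF, where 4.96% did. The median ratio of SOX2-OFF over SOX2-ON was 1.43 for the Hist1h genes and 0.957 for all coding genes. The 12 genes lay in 5 of the 23 loci. With each locus taken at its strongest peak, 4 of 23 were called and 13 had a ratio above 1, with a median of 1.38. The 12 genes were Hist1h2an and Hist1h2bp (ratio 2.05), Hist1h4n, Hist1h2ap and Hist1h2br (2.92), Hist1h4i, Hist1h2ag and Hist1h2bj (2.81), Hist1h2ad and Hist1h3d (2.48), and Hist1h2ba and Hist1h2aa (2.03). For Hist1h4i and Hist1h3d the called peak lay over the neighbouring pair, and with peaks over the gene body alone their ratios turned to 0.905 and 0.275. Most ratios were modest, and at a ratio of 3 no member was called.

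Against CEpiLC, 20 genes (37.0%) stood nearer the top in SOX2-ON, where 12.8% of 17533 coding genes did, and 0 stood nearer the top in CEpiLC, where 12.4% did. The median ratio of CEpiLC over SOX2-ON was 1.30, against 0.982 over all coding genes, and 8 of 23 loci were called at their strongest peak. Ranking by fold enrichment in place of −log10 p reduced the 20 genes to 10 (18.5%, all coding genes 12.9%). It brought 2 nearer the top in CEpiLC (3.70%, all coding genes 12.4%). On that ranking the median ratio was 1.14, against 1.03 over all coding genes. Between SOX2-OFF and CEpiLC, 2 genes stood nearer the top in SOX2-OFF (all coding genes 7.81%) and 5 in CEpiLC (6.89%), with a median ratio of CEpiLC over SOX2-OFF of 1.17 against 1.04. The 2 were the germ-line pair, and the 5 were Hist1h4n, Hist1h2ap, Hist1h2br, Hist1h2ad and Hist1h3d. These calls lay in 1 and 2 loci, and 1 locus was called on each side at its strongest peak. The call of Hist1h3d (ratio 0.330) turned to 3.16 with the gene body alone, the body plus 1 kb or start peaks alone. The last comparison thus gave few calls, on both sides, close to the background shares. SOX2-ON enters both of the first comparisons, so these are not independent of each other.

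Widths differed as well. The strongest peak was at least 1.5 times wider in SOX2-OFF than in SOX2-ON for 15 genes in 8 loci (27.8%, against 10.6% of all coding genes), and wider in SOX2-ON for 0 (4.13%). It was wider in CEpiLC than in SOX2-ON for 12 genes in 8 loci (all coding genes 8.11%) and wider in SOX2-ON than in CEpiLC for 7 in 3 loci (9.56%). Between the remaining lists it was wider in CEpiLC for 3 genes in 2 loci (3.86%) and wider in SOX2-OFF for 19 in 7 loci (13%). That direction turned when widths were divided by the median width of their list, with 19 genes wider in CEpiLC (24.7% of all coding genes) and 7 in SOX2-OFF (6.43%). Of the 12 genes nearer the top in SOX2-ON than in SOX2-OFF, 8 also had a peak at least 1.5 times wider in SOX2-OFF. The deposited −log10 p is an average over the peak, so a peak that joins strong and weak stretches carries a mixed value, and the part of this in the ranks was not tested. Among genes whose widths differed by less than 1.5 times, 4 of 39 members (10.3%) and 3.57% of all coding genes were called nearer the top in SOX2-ON than in SOX2-OFF. The 4 were the pairs Hist1h2an–Hist1h2bp and Hist1h2ba–Hist1h2aa. Against CEpiLC, 8 of 35 such members were called (22.9%, with 12.8% of all coding genes). These were Hist1h2bl, Hist1h2ai and Hist1h3h (ratio 2.02), Hist1h2ah and Hist1h2bk (2.14), and Hist1h4a, Hist1h3a and Hist1h1a (2.27). Each of these sets of neighbours stood on a single shared peak, with a ratio not far above the cutoff.

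**Figure D2:**
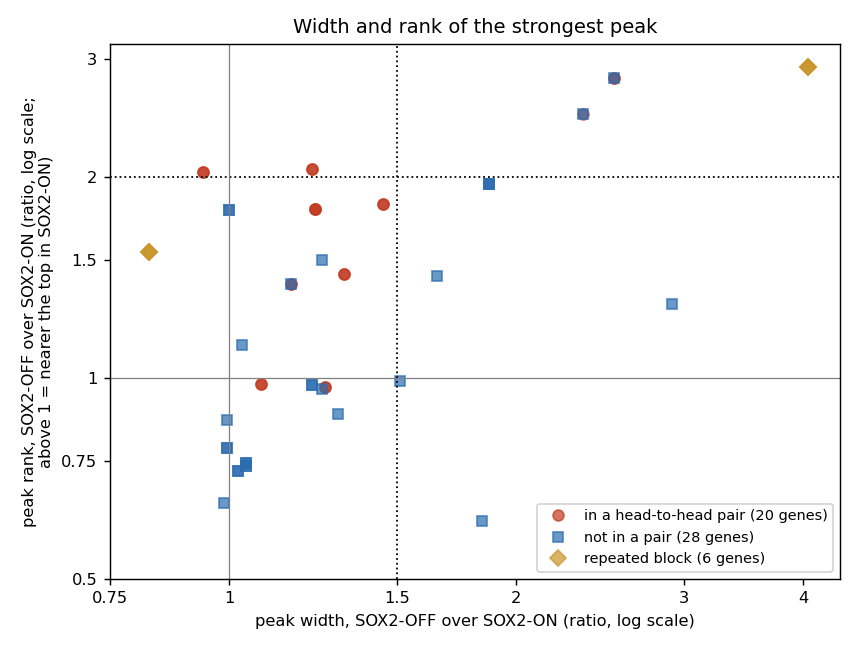
Ratio of SOX2-OFF over SOX2-ON for the width (x axis) and the rank (y axis) of the strongest peak of each of the 54 genes, both on log scales, with dotted lines at the ratios of 1.5 and 2 used for calls; genes that share a peak lie on top of each other. The points above the upper dotted line are the 12 genes nearer the top in SOX2-ON, of which 8 lie right of the vertical dotted line and 4 left of it, and no gene reaches a ratio of 0.5.

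Joined peaks could be seen at single loci. Over Hist1h4i, Hist1h2ag and Hist1h2bj, SOX2-ON had an 824 bp peak at the H4 gene (rank 9267) and a 1536 bp peak over the H2A–H2B pair (rank 2988). SOX2-OFF had a single peak of 3890 bp across all 3 genes (rank 8389). CEpiLC had 2 peaks again, of 1021 bp (rank 12324) and 2545 bp (rank 8747). The pair thus ranked lower in both other lists, and its peak was also wider in both than in SOX2-ON. The part of width in these ranks was not tested. Over Hist1h2ad and Hist1h3d, SOX2-ON had peaks of 1042 bp (rank 3792) and 528 bp (rank 34172), SOX2-OFF a single one of 2450 bp (rank 9395), and CEpiLC 818 bp (rank 3099) and 1683 bp (rank 29671). Here CEpiLC was close to SOX2-ON and SOX2-OFF stood apart. Hist1h2an and Hist1h2bp had a single shared peak over both starts in each list, of 1540, 1881 and 2310 bp.

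**Figure D3:**
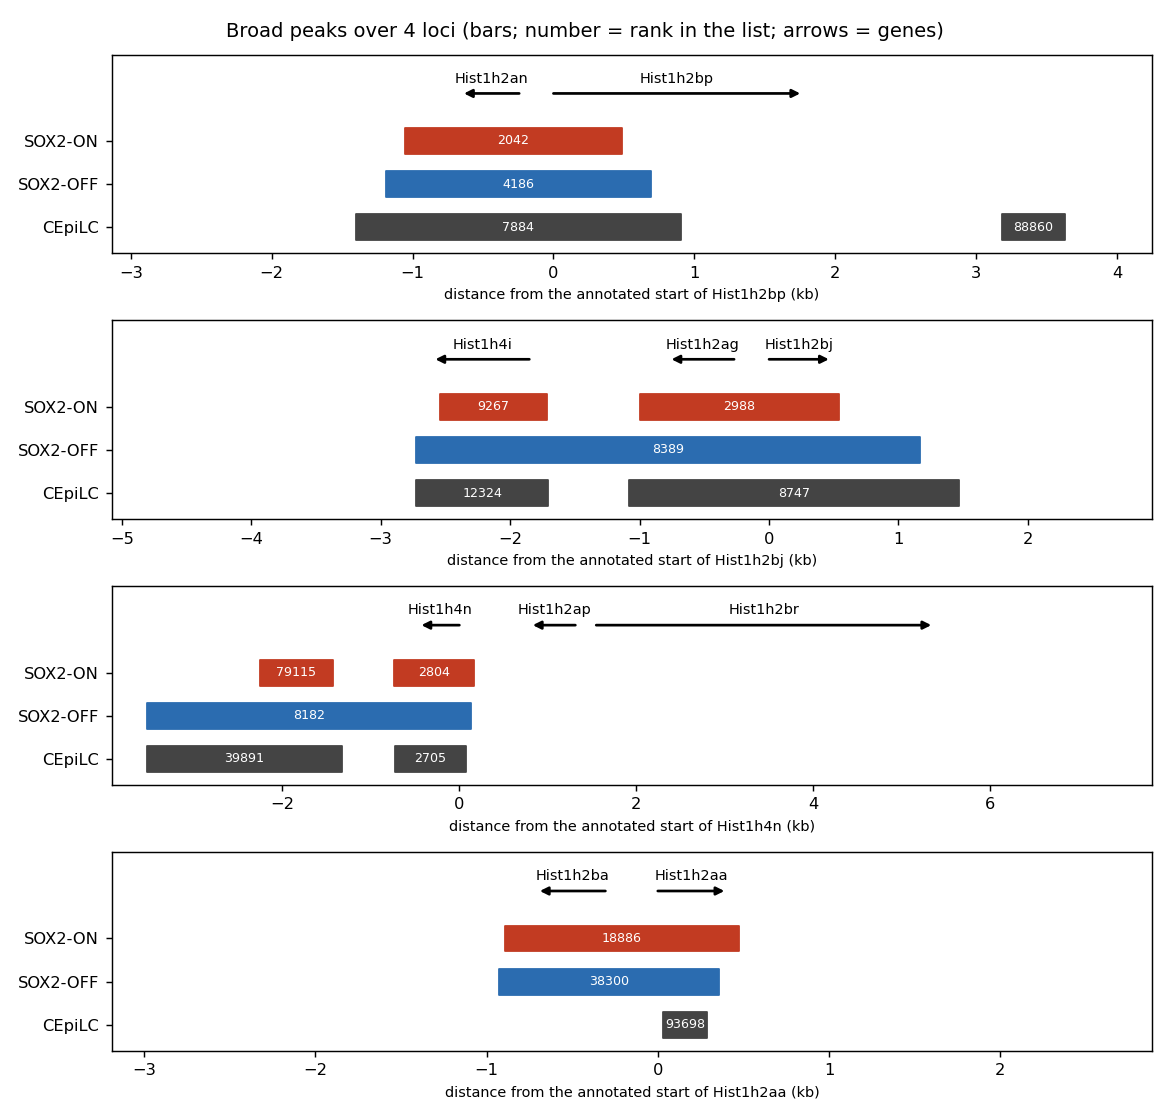
Called broad peaks (bars) that touch the window of a Hist1h gene in SOX2-ON, SOX2-OFF and CEpiLC over 4 loci, by distance in kb from the annotated start of 1 gene of the locus, with the rank of each peak in its list printed on the bar and arrows for the genes in their direction of transcription. The Hist1h4i locus shows separate peaks in SOX2-ON and CEpiLC and 1 joined peak of 3890 bp in SOX2-OFF, the Hist1h4n locus shows no peak over the starts of Hist1h2ap and Hist1h2br, and the peak of the germ-line pair narrows from 1370 bp in SOX2-ON to 257 bp in CEpiLC.

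The classes differed in how they ranked. H2A and H2B genes stood highest in SOX2-ON, each with a median rank of 3226, followed by H4 (6097), H1 (6131) and H3 (7670). Both medians of 3226 are the rank of 1 peak shared by Hist1h2ao and Hist1h2bq. It lies in the repeated block described below, whose values are uncertain, and covers neither gene. In SOX2-OFF the order was H1 (5412), H2B (6038), H2A (7481), H4 (8339) and H3 (9395), and in CEpiLC H1 (6530), H2A (7099), H2B (7695), H3 (8180) and H4 (8747). The core dimer genes thus led in SOX2-ON and the linker genes in the other lists, though the classes overlap widely and share peaks.

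Between SOX2-ON and SOX2-OFF the median ratio was 1.79 for H2A (5 of 13 called), 1.54 for H2B (4 of 15), 1.5 for H4 (2 of 11), 0.980 for H3 (1 of 9) and 0.765 for H1 (0 of 6). In that order the shares called were 38.5%, 26.7%, 18.2%, 11.1% and 0%, beside 4.10% of all coding genes (median 0.957). Of the called genes, Hist1h4n, Hist1h2ap and Hist1h2br stand on 1 peak of the repeated block. Among H1 genes, 5 of 6 ranked nearer the top in SOX2-OFF, though none by 2 or more. Only Hist1h1a did not, and its strongest peak was shared with Hist1h4a and Hist1h3a (ranks 3250, 6347 and 7373). Of the 5, Hist1h1t and Hist1h1d took their rank from the peaks of Hist1h4c and Hist1h3e, and Hist1h1e shared its peak with Hist1h2be, so that 2 of the 6 linker genes, Hist1h1b and Hist1h1c, had a strongest peak of their own. Hist1h1c had the best mean rank of the class (4328, 4170 and 3485) and Hist1h1b the worst (16176, 10516 and 12462). Both are somatic linker histones, and neither differed by 2 or more between any lists. Between SOX2-ON and CEpiLC the median ratio was 2.02 for H2A (7 called), 1.67 for H2B (7), 1.37 for H4 (3), 0.922 for H3 (2) and 0.864 for H1 (1). In that order the shares called were 53.8%, 46.7%, 27.3%, 22.2% and 16.7%, beside 12.8% of all coding genes (median 0.982).

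**Figure D4:**
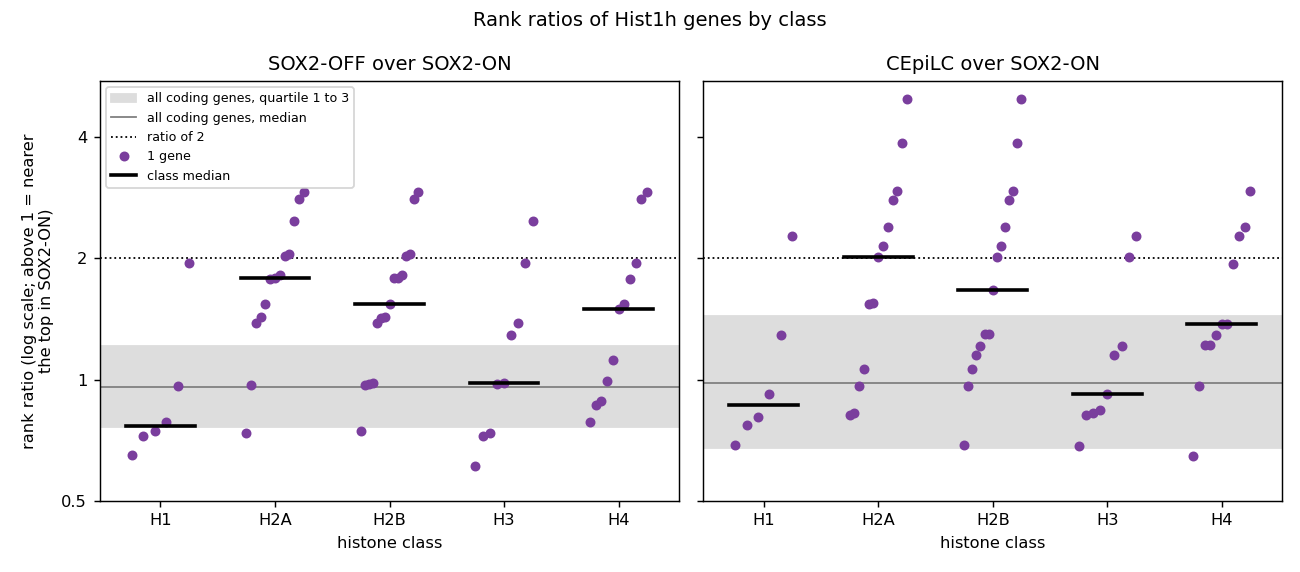
Rank ratio of each Hist1h gene (points) for SOX2-OFF over SOX2-ON (left) and CEpiLC over SOX2-ON (right) by histone class, on a log scale where values above 1 mean nearer the top in SOX2-ON; black bars are class medians, the grey line and band the median and quartiles of all coding genes, and the dotted line a ratio of 2. The H2A medians of 1.79 and 2.02 lie above the grey band and the H1 and H3 medians lie within it.

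Grouped by orientation, the difference was larger among the head-to-head genes. The 24 paired genes had median ranks of 2988 for SOX2-ON, 4973 for SOX2-OFF and 7397 for CEpiLC, and the 30 others 6769, 7832 and 8002. For SOX2-OFF over SOX2-ON, 9 of 24 paired genes, in 5 loci, were called (37.5%, median ratio 1.79), and 3 of 30 others, in 3 loci (10%, median 0.982). Of the 9, Hist1h2ap and Hist1h2br took their rank from the Hist1h4n peak, which covers neither of their starts. All 1555 coding genes in head-to-head pairs with a peak in both lists had a median of 1.01 and 5.40% were called. For CEpiLC over SOX2-ON, 14 of 24 paired genes in 7 loci (58.3%, median 2.08) and 6 of 30 others in 4 loci (20%, median 1.22) were called, with 21% of coding head-to-head genes. Of the 14, Hist1h2bq and Hist1h2ao took their rank from a peak of the repeated block that covers neither of their starts. Orientation and class go together here, since nearly all paired genes are H2A or H2B, and they were not separated. By position, 8 of 23 genes of the first run, in 3 loci, were called between SOX2-ON and SOX2-OFF (34.8%, median ratio 1.54) and 2 of 29 of the second, in 1 locus (6.90%, median 0.980), beside 4.10% of all coding genes. Of the 8, Hist1h4n, Hist1h2ap and Hist1h2br stand on 1 peak of the repeated block described below, whose values are uncertain.

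By motif, 2 of 10 genes with an octamer (20%, median ratio 1.79) and 10 of 41 without one (24.4%, median 1.38) were called between SOX2-ON and SOX2-OFF, so that the medians and the calls ran in opposite directions. Against CEpiLC, 5 of 10 with an octamer (50%, median 1.91) and 13 of 41 without one (31.7%, median 1.22) were called, beside 12.8% of all coding genes. For the TATA box the shares called were 25.8% with it and 20% without it between SOX2-ON and SOX2-OFF, and 38.7% and 30% against CEpiLC. For the CCAAT box, which only 8 matched promoters lack, they were 23.3% and 25%, and 37.2% and 25%. These groups are small and share peaks, and their differences were not tested.

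Not every pair moved. Hist1h2ak and Hist1h2bn shared a peak that ranked 4228 for SOX2-ON, 4088 for SOX2-OFF and 4495 for CEpiLC. Hist1h2bh and Hist1h3f, the pair with the widest gap between starts, ranked 8574, 8405 and 9882. These pairs differed by less than 1.2 times in rank between any lists. Hist1h2ah and Hist1h2bk fell between, at 2494, 4530 and 5334.

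Hist1h3i and Hist1h4b had the worst mean rank over the lists of the H3 and H4 classes. Hist1h3i ranked 25673 in SOX2-ON, the lowest of all members there, and 15656 and 17545 in SOX2-OFF and CEpiLC, with widths of 571, 1052 and 1732 bp. Hist1h4b ranked 16896, 14614 and 10924, with a narrow peak of 599, 596 and 586 bp in the 3 lists. In CEpiLC 2 other H4 genes, Hist1h4j (15662) and Hist1h4f (12840), ranked behind it. Both thus stood higher in SOX2-OFF and CEpiLC than in SOX2-ON, against the direction of most H2A and H2B genes. The best mean rank of the H3 class was that of Hist1h3d, through a peak over the neighbouring pair.

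The germ-line pair Hist1h2ba and Hist1h2aa had the largest difference of all members. Its shared peak ranked 18886 for SOX2-ON, 38300 for SOX2-OFF and 93698 for CEpiLC. The peak was 1370, 1286 and 257 bp wide, its fold enrichment was 3.15, 1.92 and 1.66, and its −log10 p was 29.1, 8.42 and 3.40. The CEpiLC peak lay inside Hist1h2aa and covered neither start. The ratio was 2.03 between SOX2-OFF and SOX2-ON, 4.96 between CEpiLC and SOX2-ON and 2.45 between CEpiLC and SOX2-OFF. At a −log10 q of at least 2 the CEpiLC peak, at 1.62, is no longer counted, and presence there is then 52 of 54. The other germ-line member, Hist1h1t, had no peak over its start in SOX2-ON and so did not show this order.

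Part of the first run is a repeated block. Stretches as long as 1 read of the study that occur more than 1 time in the genome made up 65.4% to 98.7% of the windows of Hist1h2bq, Hist1h2ao, Hist1h4m, Hist1h4n, Hist1h2ap and Hist1h2br. The median over all members was 8.54%. Around starts (1 kb on either side) it was 12.3% for members and 0% for 784 other coding genes of chromosome 13. Reads from such stretches may not be placed uniquely, so values of these 6 genes are uncertain. Hist1h2bq, Hist1h2ao and Hist1h4m had a single narrow peak of 505, 416 and 272 bp (ranks 3226, 4973 and 7695) that covered none of their starts. Hist1h4n, with the least repeated window of the 6 and a start inside a peak, had peaks of 907, 3666 and 807 bp. Without the 6 genes, 9 of 48, in 4 of 21 loci, were nearer the top in SOX2-ON than in SOX2-OFF (18.8%, all coding genes 4.10%). Nearer the top in SOX2-ON than in CEpiLC were 17, in 7 loci (35.4%, all coding genes 12.8%). Between SOX2-OFF and CEpiLC 2, in 1 locus, stood on each side (4.17% each, all coding genes 7.81% and 6.89%). The largest change was therefore in the last comparison, where 3 of 5 calls came from this block.

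Replication-dependent histone genes elsewhere in the genome gave no call between SOX2-ON and SOX2-OFF. All 13 genes named Hist2h, Hist3h or Hist4h had a start peak in every list, with median ranks of 5370, 7786 and 7693. Between SOX2-ON and SOX2-OFF 0 of 13 were called, with a median ratio of 1.03 and a range of 0.800 to 1.74. Against CEpiLC 3 of 13 stood nearer the top in SOX2-ON (23.1%, all coding genes 12.8%) and 1 in CEpiLC (7.69%, all coding genes 12.4%), with a median of 1.01. The 3 were Hist2h3c2 and Hist2h2aa2, which share a peak (4464 and 10546), and Hist4h4 (1816 and 5085), and the 1 was Hist3h2ba (6642 and 2326). Repeated stretches made up 71.6% and 50.7% of the sequence around the starts of Hist2h3c2 and Hist2h2aa2, so these 2 of the 3 calls are uncertain too. Hist4h4 lies on chromosome 6, with 19166 peaks in SOX2-ON and 6312 in CEpiLC, and Hist3h2ba on chromosome 11, with 7276 and 22008, and the part of these unequal totals was not tested. These lists are small and the difference from the Hist1h genes was not tested.

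Genes for replacement variants, which are mostly made throughout the cell cycle, also had a start peak in all lists (11 of 11). Their median ratio of SOX2-OFF over SOX2-ON was 1.25, with 0 called, and their median ranks were 6223, 5535 and 7126. Against CEpiLC, 3 of 11 were called nearer the top in SOX2-ON (27.3%, all coding genes 12.8%), namely H3f3a (ratio 3.64), H2afz (2.53) and H2afx (2.31), and H3f3b was called nearer the top in CEpiLC (0.216). H3f3b lies on chromosome 11, with 7276 peaks in SOX2-ON and 22008 in CEpiLC, and the part of these unequal totals was not tested. Among the replacement variants H2afv, an H2A.Z gene, ranked 55, 85 and 43, far above any Hist1h gene. Of the 16 factors of histone gene expression, all had a start peak in every list, and their median ranks were 2406, 3275 and 4113. Npat, the coactivator of the locus body, ranked 980, 836 and 814, and Slbp, which binds the stem-loop, ranked 539, 363 and 437. Both stood high in all lists and differed by less than 1.5 times. Between SOX2-ON and SOX2-OFF, Hinfp, an activator of H4 genes, was called nearer the top in SOX2-ON (504 and 1052). Cdk2, which phosphorylates NPAT (906 and 247), and Casp8ap2, a component of the locus body (507 and 242), were called nearer the top in SOX2-OFF. The counts of 1 (6.25%) and 2 (12.5%) of 16 stand beside 4.10% and 4.96% of all coding genes. Against CEpiLC, 3 were called nearer the top in SOX2-ON (18.8%, all coding genes 12.8%) and 2 in CEpiLC (12.5%, against 12.4%). The 3 were Eri1, an exonuclease that acts on histone mRNA (ratio 4.24), Ccne1, the cyclin partner of CDK2 (3.44), and Zfp473, a zinc finger protein of histone pre-mRNA processing (2.89). The 2 were Cdk2 (0.155) and Cpsf2 (0.469), a subunit of the cleavage complex. Eri1 lies on chromosome 8, with 16235 peaks in SOX2-ON and 5934 in CEpiLC, and the part of these totals was not tested either. With so few calls, on both sides, nothing is read from them about the factors as a group.

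**Figure D5:**
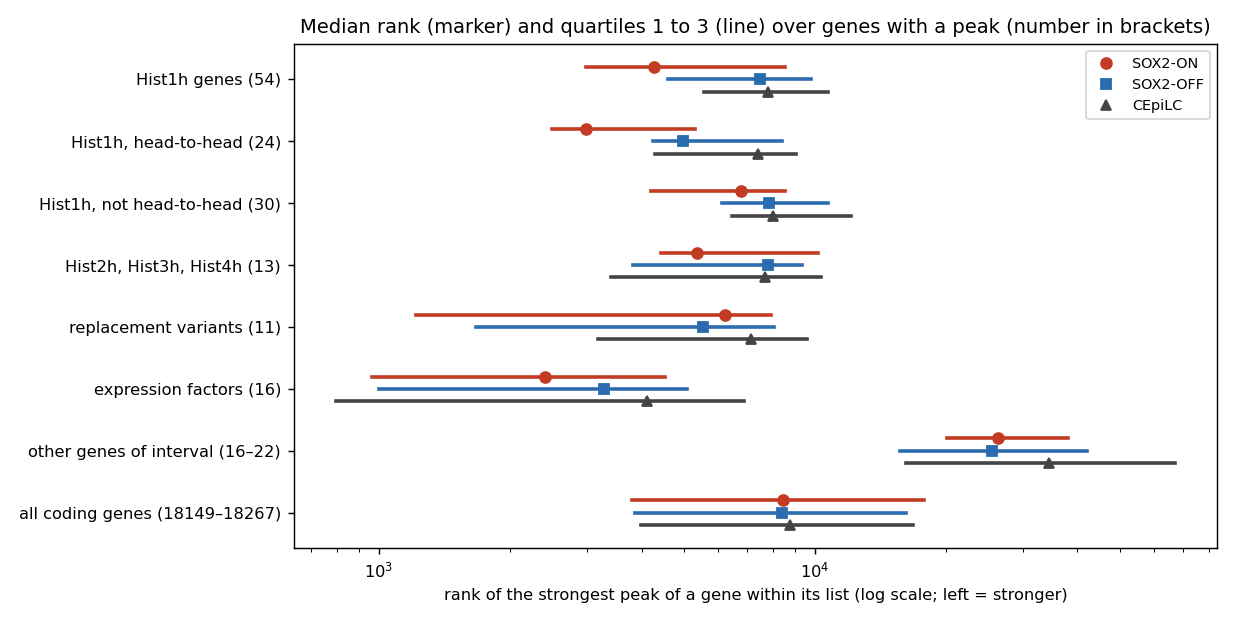
Median rank (markers) and quartiles 1 to 3 (lines) of the strongest peak over the genes of each list that have a peak, in SOX2-ON, SOX2-OFF and CEpiLC, on a log x axis where left is stronger; the number of genes is in brackets. The head-to-head Hist1h genes have medians of 2988, 4973 and 7397, the other Hist1h genes 6769, 7832 and 8002, and all coding genes 8460, 8388 and 8740.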

How the data were processed

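ATAC-seq libraries of 50000 cells, 1 per group, were sequenced and processed by the authors, who trimmed reads, aligned them to mm10 with BWA, removed mitochondrial reads and called broad peaks per sample with MACS2 in the nf-core/atacseq pipeline. For each peak the authors deposited a fold enrichment (a ratio to the local background), a −log10 p, a −log10 q and a score derived from the −log10 q, all averages over the peak or taken from them. The score was not used. Read totals are not in the lists, so depth is unknown and no interval on a peak value is given. Broad calling joins neighbouring sites, which affects widths and averages.

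Peaks were assigned to gene bodies of GENCODE M21 plus 2 kb with an overlap of at least 1 bp and ranked by −log10 p within a list (Python 3.11.15, pandas 2.3.3), and the assignment was checked against bedtools 2.31.1. Each gene was described by its strongest peak. A call was a rank ratio of at least 2 or a width ratio of at least 1.5, set beside the share of all coding genes. With 1 sample per group no test was made. Repeated sequence was measured by counting all 101-base stretches on 65 sequences of GRCm38.p6 on both strands. The members and lists were chosen with earlier results of these data known. Grouping by orientation and run, leaving out the repeated block and restricting to like widths were chosen after the data were seen. Genes named in the text were the 3 best ranks in each list, the 5 largest ratios, the best and worst of each class, the germ-line genes and those sharing a peak with most others. Other genes named (such as the called genes, genes without a start peak and unmoved pairs) were chosen after their values were seen. Alternatives were other windows, −log10 q minima of 2 and 5, midpoint overlap, start peaks alone, other rankings and other ratios.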

Additional observations from a re-analysis of the deposited data

How the results depend on the processing

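Counts that moved are given by setting, in the order nearer the top or wider in the first named list. With the gene body alone, 3 genes stood nearer the top in SOX2-OFF than in SOX2-ON (6.12%, all coding genes 4.91%). In CEpiLC 3 stood nearer the top than in SOX2-OFF (6.12%, all coding genes 6.69%), so both counts were near the share of all coding genes. In this setting 2 were wider in SOX2-ON than in CEpiLC, beside 9.56% of all coding genes in the main setting. Hist1h4i then had a SOX2-OFF over SOX2-ON ratio of 0.905 and Hist1h3d of 0.275, and Hist1h3d a CEpiLC over SOX2-OFF ratio of 3.16. These signs turned because the peak of the neighbouring pair no longer fell in the window. The 3.16 also held for the body plus 1 kb and for start peaks alone, and both settings gave 3 genes wider in SOX2-ON than in CEpiLC. Within 5 kb, 3 genes stood nearer the top in CEpiLC than in SOX2-OFF (5.56%, all coding genes 7.12%). A −log10 q of at least 2 or of at least 5 left 0 nearer the top in SOX2-OFF than in CEpiLC (all coding genes 7.47% and 7.57%). Start peaks alone gave 1 gene nearer the top in SOX2-OFF and 1 in CEpiLC than in SOX2-ON (2.08% each, all coding genes 4.72% and 12.1%). They gave 3 nearer the top in CEpiLC than in SOX2-OFF (6.12%, all coding genes 6.54%).

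Ranked by fold enrichment, median ranks were 11148, 14593 and 12607 for SOX2-ON, SOX2-OFF and CEpiLC. Then 10 genes (18.5%, all coding genes 12.9%) stood nearer the top in SOX2-ON than in CEpiLC and 2 (3.70%, 12.4%) the other way. Between SOX2-OFF and CEpiLC, 5 genes (9.26%, all coding genes 7.21%) stood nearer the top in SOX2-OFF. The CEpiLC over SOX2-OFF median ratio then fell from 1.17 to 0.857, and the cause was not tested. Ranked among coding genes, 13 stood nearer the top in SOX2-ON (24.1%, all coding genes 8.76%) and 0 in SOX2-OFF (all coding genes 5.40%) than in CEpiLC. Without chromosomes 6, 8 and 11 the median ranks of SOX2-OFF and CEpiLC were 5898 and 6149, as fewer peaks were ranked. A rank ratio of 1.5 called 25 genes (46.3%, all coding genes 11.7%) for SOX2-ON over SOX2-OFF, 2 (3.70%, 15.4%) for the opposite, 1 (1.85%, 24.3%) for CEpiLC over SOX2-ON and 11 (20.4%, 17.9%) for SOX2-OFF over CEpiLC, the last near the share of all coding genes. A ratio of 3 called 0, 4 and 0 for SOX2-ON over SOX2-OFF, SOX2-ON over CEpiLC and SOX2-OFF over CEpiLC (all coding genes 0.976%, 5.65% and 2.89%), so that the 4 (7.41%) were near that share. A width ratio of 2 called 9 wider in SOX2-OFF and 3 in CEpiLC than in SOX2-ON, 2 in SOX2-ON than in CEpiLC, 0 in CEpiLC than in SOX2-OFF and 7 for the opposite, with between 1.58% and 7.09% of all coding genes called. Divided by the median width of the list, 19 were wider in CEpiLC than in SOX2-OFF and 7 for the opposite, so that direction depends on the scaling. Without the repeated block, an alternative added after seeing the data, 4 were wider in SOX2-ON than in CEpiLC (8.33%, all coding genes 9.56%). In that setting 2 stood nearer the top in CEpiLC than in SOX2-OFF (4.17%, all coding genes 6.89%). The other 200 values stayed within 1.5 times (counts) or within the 95% interval of the median over genes (medians). That interval is wide, and the median rank of SOX2-ON rose from 4278 to 7568 (1.77 times) with the gene body alone and to 6131 with start peaks alone and without the repeated block. No paired analysis was possible because every group holds a lone sample.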
